A study of Homo sapiens with 14 samples.

Results

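PTX3, CCDC80, CXCR4, DGKK, SYT17 and RAI2 are 6 of the 19923 protein-coding genes counted in 14 RNA-sequencing libraries of SK-N-BE2, an established human neuroblastoma line with an amplified MYCN gene. They were picked by name because the average of the cells labelled TET2 knockout differed strongly from wild type (WT) in these same data. PTX3 and CCDC80 were lower in the labelled knockouts, and DGKK, SYT17, CXCR4 and RAI2 were higher. The size of those differences is therefore the reason for the choice and is given as a description, with no test. Cobalt chloride (CoCl2) treatment, and the differences of the labelled knockouts from each other, were not used in the choice and were tested.

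All 14 libraries came from SK-N-BE2 cells grown in RPMI medium with fetal bovine serum, and polyadenylated RNA was sequenced. Labelled batch 1 compared water (H2O) with CoCl2 at 10 µM and at 50 µM in cells of WT genotype. Labelled batch 2 held untreated WT cells and untreated cells labelled TET2 knockout 1, 2 and 3, with 2 libraries in each of these 7 groups. The labels do not say how TET2 was disrupted, whether a knockout number is 1 clone, how long CoCl2 was given, or whether replicates were separate cultures, so p-values measure only the spread between these libraries. The total count of a library lay between 31214128 and 39540111 in batch 1. It lay between 52095024 and 59263320 in batch 2, whose tables mostly count both reads of a fragment. All adjusted p-values below are Benjamini-Hochberg values of edgeR's quasi-likelihood test over all genes tested in a batch, and a gene was called at an adjusted p under 0.05. For the average of the labelled knockouts, these p-values rest on the spread between libraries of the same group. They do not measure the spread between knockout numbers. CPM is the count divided by the depth of the library, scaled within each batch by TMM (trimmed mean of M-values), and RPKM is CPM per kilobase of exon.

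TET2 is an enzyme that oxidises 5-methylcytosine to 5-hydroxymethylcytosine, a step toward removal of DNA methylation, which in mammals sits mainly on CG dinucleotides. Cobalt ions stabilise hypoxia-inducible factors (HIF), transcription factors that bind short sites with an ACGTG or GCGTG core, and CXCR4 is a known HIF target. The 6 genes do different work. PTX3 encodes a secreted pentraxin that binds microbes, complement C1q and the hyaluronan-rich matrix, and CCDC80 encodes another secreted matrix protein. CXCR4 is the cell-surface receptor for the chemokine CXCL12, which guides cell migration. DGKK is a lipid kinase that turns diacylglycerol into phosphatidic acid, SYT17 is an atypical synaptotagmin of membrane traffic, and RAI2 is a nuclear protein that was found as a retinoic acid-induced gene and binds CtBP corepressors.

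Because TET2 acts at CG dinucleotides, the 250 bases before the annotated start are shown for the 5 genes matched in the RefSeq promoter table (GRCh38.p14). Each is written 5′ to 3′ on the gene's own strand, with every CG in capitals. PTX3 lies at chr3:157436600-157436849 on the plus strand and CCDC80 at chr3:112641144-112641393 on the minus strand. DGKK lies at chrX:50470826-50471075, CXCR4 at chr2:136118150-136118399 and RAI2 at chrX:17861299-17861548, all on the minus strand. The RefSeq start of CCDC80 lies 8387 bases inside the gene as the count tables draw it, and that of RAI2 lies 39 bases inside.
PTX3: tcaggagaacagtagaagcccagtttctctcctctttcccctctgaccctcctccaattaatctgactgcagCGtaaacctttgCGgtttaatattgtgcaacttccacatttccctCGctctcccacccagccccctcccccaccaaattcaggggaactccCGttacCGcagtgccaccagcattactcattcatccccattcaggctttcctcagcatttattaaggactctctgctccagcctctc
CCDC80: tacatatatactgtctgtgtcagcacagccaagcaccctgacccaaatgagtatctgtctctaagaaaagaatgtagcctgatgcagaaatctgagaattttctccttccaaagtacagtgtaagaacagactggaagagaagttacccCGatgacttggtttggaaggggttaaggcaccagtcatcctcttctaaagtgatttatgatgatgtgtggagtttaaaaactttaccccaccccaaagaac
CXCR4: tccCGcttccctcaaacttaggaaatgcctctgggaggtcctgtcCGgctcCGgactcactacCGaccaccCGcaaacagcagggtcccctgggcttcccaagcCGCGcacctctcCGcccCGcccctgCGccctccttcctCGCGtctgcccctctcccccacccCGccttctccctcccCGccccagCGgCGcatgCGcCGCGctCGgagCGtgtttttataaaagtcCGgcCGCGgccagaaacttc
DGKK: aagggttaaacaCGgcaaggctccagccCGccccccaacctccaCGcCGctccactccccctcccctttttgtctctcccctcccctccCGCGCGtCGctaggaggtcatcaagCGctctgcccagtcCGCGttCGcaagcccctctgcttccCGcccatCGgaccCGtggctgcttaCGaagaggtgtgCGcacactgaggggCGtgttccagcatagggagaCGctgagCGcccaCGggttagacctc
RAI2: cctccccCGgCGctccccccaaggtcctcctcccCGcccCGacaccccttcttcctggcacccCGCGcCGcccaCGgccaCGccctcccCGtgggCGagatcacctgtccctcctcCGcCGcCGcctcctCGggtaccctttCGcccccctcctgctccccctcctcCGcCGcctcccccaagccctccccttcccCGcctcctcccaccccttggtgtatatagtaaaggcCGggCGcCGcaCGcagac

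The windows of the genes that were lower held fewer CGs than the median window. PTX3 had 5 CGs and CCDC80 had 1, and 34.3% and 6.05% of the 35114 promoter windows of the table held fewer. The windows of the genes that were higher were richer in them: DGKK had 21, RAI2 had 23 and CXCR4 had 24, and 69.8%, 74.2% and 76.3% of windows held fewer. The median over the table was 11 CGs and the lower quartile was 3. The CCDC80 window precedes a start that lies inside the gene as counted, and SYT17, also higher, had no window. With 5 genes, this is a description of these windows. No DNA methylation value was used here, so nothing on methylation of these windows was measured.

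**Figure D1:**
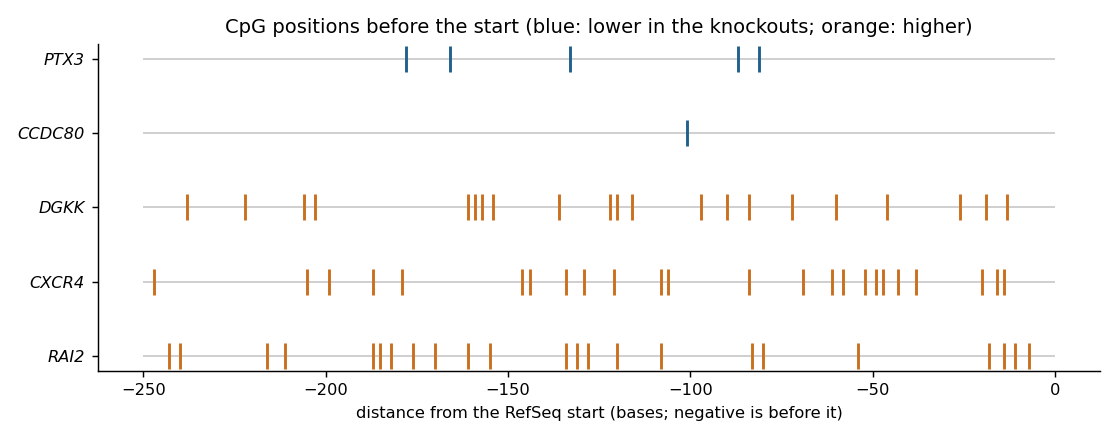
Position of each CG in the 250 bases before the RefSeq start of 5 genes, as distance from the start in bases (horizontal axis). Each tick is 1 CG, blue for the genes lower in the labelled knockouts (5 in PTX3, 1 in CCDC80) and orange for those higher (21 in DGKK, 24 in CXCR4, 23 in RAI2).

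The HIF core, ACGTG or GCGTG on either strand, occurred 2 times in the DGKK window, 2 times in the RAI2 window and 1 time in the CXCR4 window, and in neither PTX3 nor CCDC80. It is a frequent match, found in 43.2% of all windows. The E-box CACGTG, which contains ACGTG and was found in 6.35% of windows, occurred in none of the 5. The AP-1 site TGANTCA, found in 6.57% of windows, occurred in none of them either. These matches are letters in a window and not measured sites.

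The mRNA of TET2 itself (chromosome 4, 105145875 to 105279816, plus strand) was not lower in the libraries labelled knockout. It stood at 70.8 and 64.8 CPM in WT, 80.4 and 76.6 in knockout 1, 87.4 and 91.1 in knockout 2, and 68.2 and 75.4 in knockout 3. TET2 mRNA was higher than in WT in knockout 1 (log2 0.21, adjusted p = 0.000664) and knockout 2 (log2 0.40, adjusted p = 3.86e-12), and in knockout 3 the difference was 0.08 (adjusted p = 0.301). A count over all exons does not show a small change of sequence, so the labels were not checked by it, and the groups are called labelled knockouts. Of 12 adrenergic neuroblastoma markers, 11 were above 1 CPM in every group.

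PTX3 stood far below its WT level in the labelled knockouts. The gene lies on chromosome 3 from 157436850 to 157443633 on the plus strand, with 1884 bases of exon. Its level was 28.8 and 28.2 CPM in the WT libraries, 2.43 and 2.49 in knockout 1, 2.73 and 2.5 in knockout 2, and 2.82 and 3.28 in knockout 3. All 6 knockout libraries lay close together, and the highest of them was far below both WT libraries. The log2 differences from WT were -3.53 (SE 0.12), -3.45 (SE 0.12) and -3.23 (SE 0.12) for knockouts 1, 2 and 3, and the average of -3.40 (SE 0.09) left 0.0945 of the WT level. All 3 knockout comparisons here and below use the same 2 WT libraries. In bulk RNA, fewer cells that express a gene and less RNA per cell cannot be told apart.

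PTX3 overlaps VEPH1, a gene on the opposite strand, over 71 exon bases, 3.77% of PTX3's exons, and reads there were counted without regard to strand. VEPH1 stood at 1.35 and 1.87 CPM in WT, well under PTX3. It was lower in knockout 1 (log2 -2.36, adjusted p = 5.44e-07) and knockout 3 (log2 -2.55, adjusted p = 1.31e-07), and in knockout 2 it differed from WT by -0.43 (adjusted p = 0.294). PTX3 stayed within 2.43 to 3.28 CPM in all 3 knockouts. Of its next neighbours, CCNL1 (276090 bases away) differed by -0.22 in the average knockout (adjusted p = 6.97e-06), and SLC66A1L was not tested in batch 2.

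CCDC80 stood at a small share of its WT level in every labelled knockout, and kept more of it in knockout 2 than in the others. It lies on chromosome 3 from 112596794 to 112649530 on the minus strand, with 13071 bases of exon, and overlaps no other counted gene. Its level was 35.3 and 33.6 CPM in WT, 4.15 and 4.87 in knockout 1, 6.55 and 6.51 in knockout 2, and 4 and 3.9 in knockout 3. Both WT libraries lay above all 6 knockout libraries, and both libraries of knockout 2 lay above the other 4. The log2 differences from WT were -2.93 (SE 0.10), -2.40 (SE 0.09) and -3.12 (SE 0.11), with an average of -2.81 (SE 0.08) that left 0.142 of the WT level. Its neighbour SLC35A5, 11215 bases away, differed by 0.08 in the average knockout (adjusted p = 0.262).

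CXCR4, the chemokine receptor, stood at a higher level than in WT in each labelled knockout. It lies on chromosome 2 from 136114349 to 136118149 on the minus strand, with 2208 bases of exon. Its level was 18.8 and 16.7 CPM in WT, 35.6 and 36.3 in knockout 1, 38 and 36.4 in knockout 2, and 32.2 and 32.2 in knockout 3. No knockout library came near the WT pair. Log2 differences from WT were 1.02 (SE 0.07), 1.07 (SE 0.07) and 0.86 (SE 0.08), and the average of 0.98 (SE 0.06) was 1.98 times WT. THSD7B, 647396 bases away, was lower in the average knockout (log2 -0.95, adjusted p = 1.59e-21).

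DGKK, SYT17 and RAI2 were rare transcripts, with 46 to 72 counts in a WT library, and their values carry more counting error. DGKK (chromosome X, 50365409 to 50470825, minus strand) had 1.31 and 0.927 CPM in WT, 2.36 and 2.86 in knockout 1, 2.44 and 2.42 in knockout 2, and 2.29 and 2.38 in knockout 3. The 6 knockout libraries of DGKK lay within a narrow range above both WT libraries. The DGKK differences of 1.23 (SE 0.26), 1.12 (SE 0.26) and 1.06 (SE 0.27) on the log2 scale averaged 1.14 (SE 0.22), or 2.2 times WT. Its neighbour CCNB3, 13495 bases away, differed by -0.13 in the average knockout (adjusted p = 0.815), and SHROOM4, 120822 bases away, by -0.19 (adjusted p = 0.00523). The SHROOM4 average joins opposite signs. SHROOM4 was lower in knockout 1 (-0.42, adjusted p = 1.85e-07) and knockout 3 (-0.67, adjusted p = 1.51e-15) and higher in knockout 2 (0.51, adjusted p = 3.87e-13).

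RAI2 (chromosome X, 17800049 to 17861337, minus strand) was higher in all 6 knockout libraries than in WT, with a wide spread in knockout 3. It had 0.837 and 0.999 CPM in WT, 1.79 and 2.3 in knockout 1, 1.97 and 1.7 in knockout 2, and 1.91 and 1.23 in knockout 3. The second library of knockout 3 was the one nearest to WT. RAI2 differences from WT were 1.16 (SE 0.29), 1.00 (SE 0.30) and 0.79 (SE 0.31) on the log2 scale, with an average of 0.98 (SE 0.25). Without the first library of knockout 3, the difference of that knockout was 0.42. Its neighbour SCML1, 45061 bases away, differed by 0.02 in the average knockout (adjusted p = 0.87).

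SYT17 (chromosome 16, 19167971 to 19268332, plus strand) was the member whose change was least shared. Its level was 1.06 and 1.23 CPM in WT, 2.45 and 2.7 in knockout 1, 3.78 and 2.91 in knockout 2, and 1.28 and 1.72 in knockout 3. Knockouts 1 and 2 lay clear of WT, while 1 library of knockout 3 lay just above the higher WT library. SYT17 differences from WT were 1.17 (SE 0.26) in knockout 1 and 1.55 (SE 0.24) in knockout 2, against 0.38 (SE 0.30) in knockout 3. The average of 1.03 (SE 0.23) therefore rested mostly on knockouts 1 and 2. In knockout 3 the SYT17 difference had the same direction but was little larger than its SE. Its neighbour ITPRIPL2, 46342 bases away, was lower in the average knockout (log2 -0.26, adjusted p = 0.000256).

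**Figure D2:**
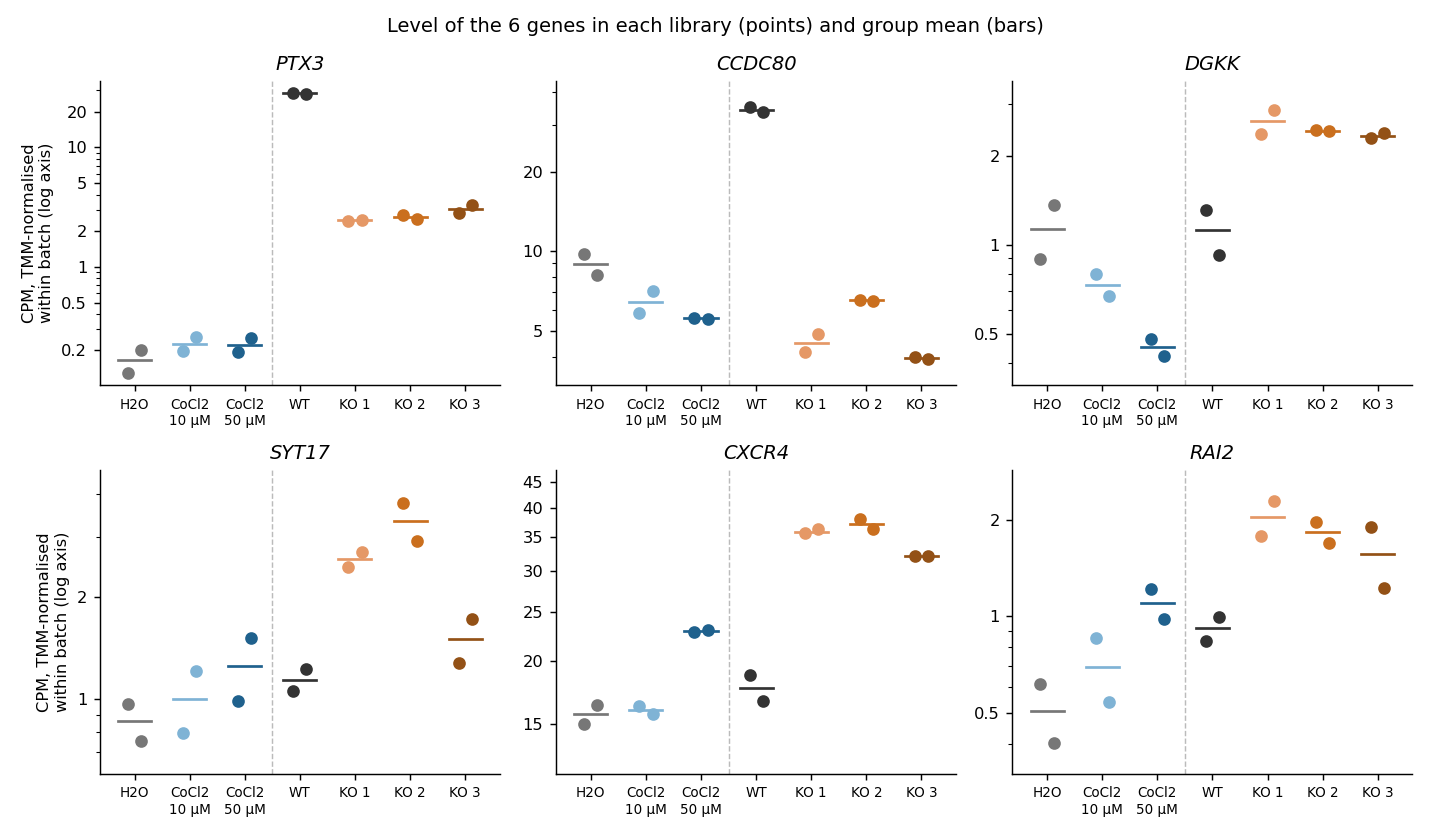
Level of the 6 genes in CPM (log axis) in each of the 14 libraries (points), with the group mean of 2 libraries as a bar, batch 1 left and batch 2 right of the dashed line. PTX3 and CCDC80 drop from WT (28.8 and 28.2, 35.3 and 33.6) to the labelled knockouts (KO), and the other 4 genes stand higher in the labelled knockouts, least so SYT17 in knockout 3 (1.28 and 1.72 against 1.06 and 1.23 in WT).

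Per exon length, PTX3 was the most abundant of the 6 in WT cells of batch 2, at 15.3 and 15 RPKM, followed by CXCR4 at 8.51 and 7.56 and CCDC80 at 2.7 and 2.57. RAI2 (0.319 and 0.381), DGKK (0.175 and 0.124) and SYT17 (0.14 and 0.163) stood far lower on the RPKM scale, and the libraries of the last pair overlapped. Levels also differed between the WT cells of batch 2 and the H2O cells of batch 1, and the labelled batch and the culture cannot be told apart here. When all 14 libraries were scaled together, PTX3 was at 0.124 and 0.195 CPM in H2O against 29.5 and 28.9 in WT, a ratio of 183. CCDC80 differed 4.05-fold in the same direction, and the other 4 genes differed 1.05-fold (DGKK) to 1.91-fold (RAI2). The high starting level of PTX3, from which it dropped, was present in WT of batch 2 and not seen in the control of batch 1.

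The share of all 14061 genes called against WT was 17.5% for knockout 1, 26.3% for knockout 2, 18.9% for knockout 3 and 18.9% for the average of the 3, with 7.54% higher and 11.4% lower in that average. These shares are printed as background only, since the 6 genes were chosen on this contrast. The choice set no threshold. Ordered by the average log2 difference, PTX3 stood at rank 21 and CCDC80 at rank 33 from the lowest, and DGKK, SYT17, CXCR4 and RAI2 at ranks 89, 109, 118 and 119 from the highest.

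Whether the labelled knockouts differed from each other was tested next. CCDC80, SYT17 and CXCR4 differed among the 3 labelled knockouts and PTX3, DGKK and RAI2 were not called. A share of 3 of 6 compares with 37.6% of all genes called for a difference among the knockouts, so it is close to the background. CCDC80 was highest in knockout 2 and SYT17 lowest in knockout 3, while the CXCR4 difference was small.

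The F-test over the 3 labelled knockouts (edgeR, adjusted p) gave 6.21e-05 for CCDC80, whose highest and lowest knockouts differed by 0.72 on the log2 scale. CCDC80 was higher in knockout 2 than in knockout 1 by 0.53 (SE 0.15, adjusted p = 0.00305), the only one of the 6 genes called there, against 26.5% of all genes. It was lower in knockout 3 than in knockout 2 by log2 -0.72 (SE 0.15, adjusted p = 3.82e-05). The difference of knockout 2 from knockout 1 was not called without the first library of knockout 1 (0.42, adjusted p = 0.0794).

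SYT17 differed the most, by 1.17 on the log2 scale between knockouts 2 and 3 (adjusted p over the 3 = 3.01e-05). It was lower in knockout 3 than in knockout 2 (log2 -1.17, SE 0.23, adjusted p = 7.04e-06) and lower than in knockout 1 (log2 -0.80, SE 0.25, adjusted p = 0.0229). SYT17 was the only one of the 6 called between knockouts 3 and 1, where 8.3% of all genes were called. That second call was lost without the first library of knockout 1 (adjusted p = 0.0683), without the second library of knockout 1 (adjusted p = 0.181), or without the first library of knockout 3 (log2 -0.59, adjusted p = 0.317).

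CXCR4 was lower in knockout 3 than in knockout 2 by log2 -0.21 (SE 0.07, adjusted p = 0.00787), which made 3 of 6 genes called between these groups, against 34.2% of all genes. Its adjusted p over the 3 knockouts was 0.018. Without the first library of knockout 2, without the first of knockout 3 or without the second of knockout 3, that p was 0.0983, 0.129 and 0.0967. The step between knockouts 3 and 2 was likewise not called without the first library of knockout 2 (adjusted p = 0.113) or of knockout 3 (adjusted p = 0.0623). For PTX3, DGKK and RAI2 the highest and lowest knockouts differed by 0.30 (adjusted p = 0.459), 0.17 (adjusted p = 0.816) and 0.36 (adjusted p = 0.493), with SE of single differences from 0.20 to 0.26, which does not show that the knockouts were alike.

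At 50 µM CoCl2 a change was called in 5 of the 6 genes. CCDC80 and DGKK fell, CXCR4, RAI2 and SYT17 rose, and PTX3 was too scarce to be tested. The SYT17 call lay at the edge of the threshold (adjusted p = 0.0484) and was lost in several other fits given below. All 5 genes tested were called at 50 µM, where 61.4% of all genes were called, with 30.4% of genes higher and 31.1% lower. At 10 µM only CCDC80 was called, 1 of 5 against 22.7% of all genes, with 11.6% higher and 11.1% lower. Between the doses CXCR4 and RAI2 were called, 2 of 5 against 52.8%. With 5 genes, these counts say nothing particular about the list.

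CCDC80 had 9.81 and 8.17 CPM in H2O, 5.84 and 7.08 at 10 µM, and 5.6 and 5.57 at 50 µM. Both treated groups lay below both H2O libraries. It fell at 10 µM (log2 -0.47, SE 0.09, adjusted p = 2.04e-05) and at 50 µM (log2 -0.69, SE 0.10, adjusted p = 3.79e-10), and the 50 µM call held when any 1 library of the batch was left out. The further step from 10 to 50 µM was -0.22 (SE 0.11, adjusted p = 0.0819), and it ranged from -0.07 without the second 10 µM library (adjusted p = 0.726) to -0.34 without the first (adjusted p = 0.013).

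DGKK, higher in the labelled knockouts, went down with CoCl2. It had 0.894 and 1.36 CPM in H2O, 0.797 and 0.669 at 10 µM, and 0.48 and 0.42 at 50 µM, with no overlap between the groups. The 50 µM level was 0.398 of H2O (log2 -1.33, SE 0.31, adjusted p = 7.1e-05). At 10 µM the difference was -0.63 (SE 0.26, adjusted p = 0.0724), and without single libraries it ranged from -0.29 (adjusted p = 0.647, without the second H2O library) to -0.90 (adjusted p = 0.029, without the first). The 50 µM value rests on 15 counts in each library.

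CXCR4 rose at the higher dose. It had 15 and 16.4 CPM in H2O, 16.3 and 15.7 at 10 µM, and 22.8 and 23 at 50 µM. The 10 µM libraries lay within the H2O range, and both 50 µM libraries lay above it. The rise at 50 µM was 1.46-fold (log2 0.54, SE 0.06, adjusted p = 1.31e-15), and the step from 10 to 50 µM was 0.52 (SE 0.06, adjusted p = 3.37e-14). At 10 µM the difference was 0.02 (SE 0.06, adjusted p = 0.849). The 50 µM level of batch 1 exceeded H2O by less than each labelled knockout exceeded WT, but these contrasts come from separate batches and their difference was not tested.

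RAI2 had 0.613 and 0.403 CPM in H2O, 0.854 and 0.54 at 10 µM, and 1.22 and 0.979 at 50 µM. The 10 µM libraries overlapped the H2O range, and the 50 µM libraries lay above all 4 others. It rose 2.14-fold at 50 µM (log2 1.10, SE 0.30, adjusted p = 0.000714). At 10 µM the difference was 0.44 (SE 0.33, adjusted p = 0.362). The step between the doses was 0.66 (SE 0.28, adjusted p = 0.0394), and this call was lost with DESeq2 (adjusted p = 0.257), with no gene filter (adjusted p = 0.07), in a fit of all 14 libraries (adjusted p = 0.207), without the second 10 µM library (0.35, adjusted p = 0.42), and without the first 50 µM library (0.50, adjusted p = 0.25).

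SYT17 had 0.971 and 0.756 CPM in H2O, 0.797 and 1.21 at 10 µM, and 0.992 and 1.51 at 50 µM. Both 50 µM libraries lay above the H2O pair, the first of them only just and within the 10 µM range. The rise at 50 µM was 0.55 on the log2 scale (SE 0.25) with an adjusted p of 0.0484, at the edge of the threshold. It was not called with DESeq2 (adjusted p = 0.27), with no gene filter (0.0931), in the fit of all 14 libraries (0.211), without the dispersion floor (0.0552), without the second H2O library (log2 0.38, adjusted p = 0.286) or without the second 50 µM library (log2 0.20, adjusted p = 0.654). At 10 µM the difference was 0.23 (SE 0.26, adjusted p = 0.586).

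PTX3 was close to the limit of detection in all of batch 1. The libraries held 5 and 8 counts in H2O, 7 and 10 at 10 µM, and 6 and 9 at 50 µM. Summed over a group these were 13, 17 and 15 counts, with exact 95% Poisson intervals of 6.92 to 22.2, 9.9 to 27.2 and 8.4 to 24.7 that cover counting error only. The 3 intervals overlapped, and PTX3 did not pass the filter on low counts. In a fit with no filter over 17036 genes the difference at 50 µM was 0.42 (SE 0.57, adjusted p = 0.578), so no effect of CoCl2 on PTX3 was detectable at this depth.

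**Figure D3:**
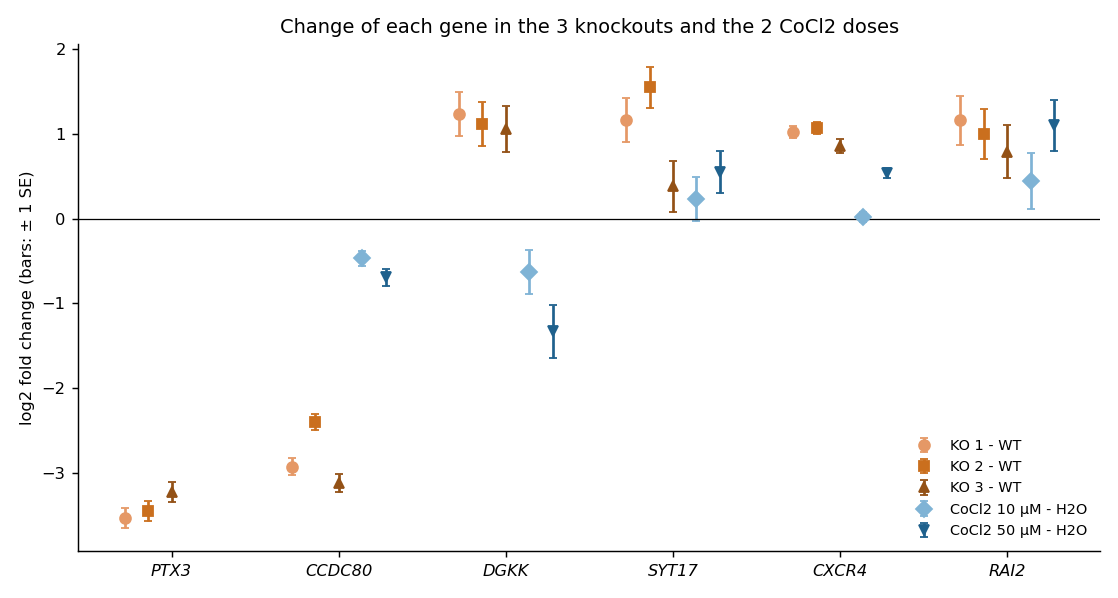
Log2 fold change (vertical axis, ± 1 SE) of each gene in the 3 labelled knockouts (KO) against WT and in the 2 CoCl2 doses against H2O, each dose and knockout with 2 libraries. PTX3 has no CoCl2 point because it did not pass the filter on low counts, DGKK lies above 0 in the labelled knockouts (1.23, 1.12 and 1.06) and below 0 with CoCl2 (-0.63 and -1.33), and CCDC80 lies below 0 in all 5.

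The genes next to the 6 were also read at 50 µM CoCl2. THSD7B, beside CXCR4, fell (log2 -1.09, adjusted p = 7.12e-21), while CXCR4 rose. ITPRIPL2, beside SYT17, fell (-0.91, adjusted p = 4.66e-35). Beside DGKK, which fell, CCNB3 fell (-0.78, adjusted p = 0.0299) and SHROOM4 rose (0.44, adjusted p = 9.67e-22). Beside RAI2, which rose, SCML1 rose (0.50, adjusted p = 7.19e-19). SLC35A5 beside CCDC80 differed by 0.03 (adjusted p = 0.47), and SLC66A1L beside PTX3 fell (-2.91, adjusted p = 1.56e-05). CD200R1L, CLEC19A and BEND2 had too few counts to be tested.

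Around the 6 genes, 6 pathway lists were read in the same fits. Their counts stand beside 18.9% of all genes called in the average knockout (7.54% higher, 11.4% lower) and 61.4% called at 50 µM CoCl2 (30.4% higher, 31.1% lower). P-values of the average knockout leave out the spread between knockout numbers. In a fit where all knockout libraries shared 1 coefficient, the average had 256 calls in place of 2656. The CXCL12 axis held 20 genes, the ligand, other CXC receptors, G proteins, kinases and arrestins of the CXCR4 receptor. CXCL12 itself, the ligand of CXCR4, went the opposite way to its receptor in knockouts 1 and 3. CXCL12 had 18.7 and 18 CPM in WT, 9.34 and 8.21 in knockout 1, 17.2 and 17.3 in knockout 2, and 4.85 and 5.24 in knockout 3. Knockout 2 lay just under WT and the other knockouts lay far below it. CXCL12 fell in knockout 1 (log2 -1.07, adjusted p = 3.44e-19) and in knockout 3 (log2 -1.87, adjusted p = 4.99e-37), and in knockout 2 the difference was -0.09 (adjusted p = 0.502). The 3 labelled knockouts differed from each other (adjusted p = 1.83e-34).

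**Figure D4:**
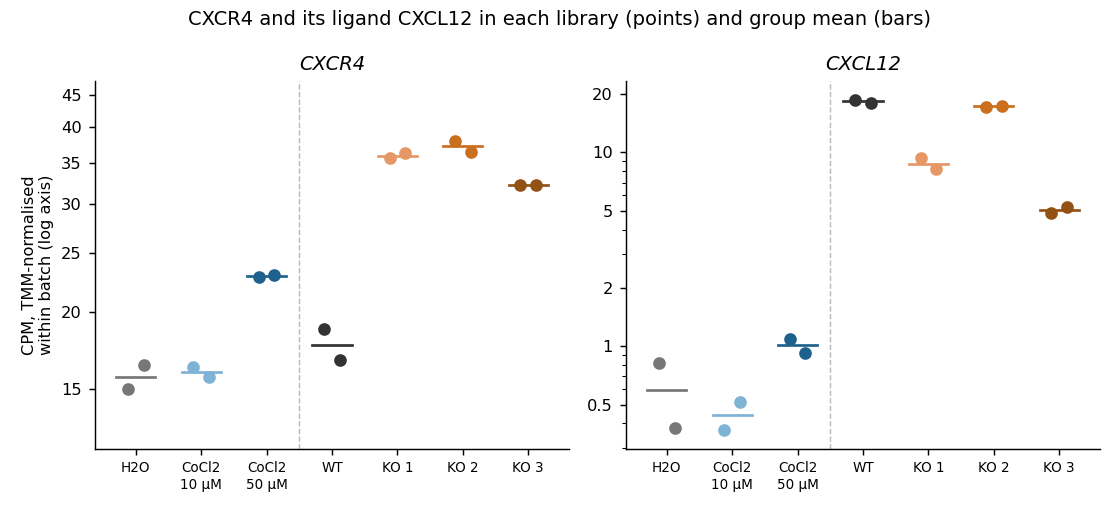
CXCR4 and its ligand CXCL12 in CPM (log axis) in each library (points), with the mean of 2 libraries as a bar, batch 1 left and batch 2 right of the dashed line. CXCR4 is above WT in all 3 labelled knockouts (KO), while CXCL12 is below WT in knockouts 1 and 3 (9.34 and 8.21, 4.85 and 5.24, against 18.7 and 18) and close to WT in knockout 2 (17.2 and 17.3).

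CXCL12 was scarce in batch 1, at 0.818 and 0.378 CPM in H2O, 0.37 and 0.515 at 10 µM, and 1.09 and 0.924 at 50 µM, and the 50 µM rise was 0.74 on the log2 scale (SE 0.29, adjusted p = 0.0222). In the average knockout, 14 genes of this axis were tested: 3 were higher, 3 lower and 8 not called, with a median log2 change of -0.01. The kinases GRK3 (0.15, adjusted p = 1.99e-06) and GRK6 (0.23, adjusted p = 6.65e-05), which phosphorylate active receptors, were slightly higher, GRK6 with no call in knockout 1 (0.11, adjusted p = 0.224). At 50 µM CoCl2, 12 were tested, with 8 higher, 2 lower and a median of 0.09, among them GRK5 (0.47, adjusted p = 1.39e-19), the cytokine MIF (0.14, adjusted p = 2.34e-09) and the G protein subunit GNAI3 (-0.14, adjusted p = 1.43e-10). The median over all genes was 0.00 in both comparisons, and this serves for the lists below as well.

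Matrix genes related to CCDC80 were mostly lower in the labelled knockouts. This list of 12 genes was written with earlier results of these libraries known, so its direction is no independent evidence. Of the 12, 8 were lower, 2 higher and 2 not called in the average knockout, with a median log2 change of -0.96. COL3A1 (-3.16, adjusted p = 7.8e-154), a fibrillar collagen, FN1 (-2.07, adjusted p = 2.53e-145), which encodes fibronectin, and THBS1 (-2.16, adjusted p = 2.83e-120), which encodes thrombospondin 1, fell. COL3A1 was less reduced in knockout 2 (-2.49) than in knockouts 1 (-3.38) and 3 (-3.59), and the 3 differed (adjusted p = 5.04e-31), the same order as for CCDC80. FN1 was at -1.23 in knockout 2 against -2.45 and -2.53 in knockouts 1 and 3, and THBS1 at -1.57 against -2.37 and -2.53. Both differed among the 3 (adjusted p = 6.62e-82 and 2.42e-32). DCN, which encodes the proteoglycan decorin, was higher (0.99, adjusted p = 2.08e-39). As for PTX3, the WT level of COL3A1 and COL1A1 was not seen in the control of batch 1. Mean CPM, scaled within each batch, was 155 in WT and 3.28 in H2O for COL3A1, and 64.8 and 6.33 for COL1A1. LUM, also on the list, stood at 23.5 in WT and 18.9 in H2O.

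At 50 µM CoCl2 the same matrix list was mixed, with 5 of 11 higher, 3 lower and a median of 0.13. SRPX, a sushi-repeat protein with a domain shared with CCDC80, rose 2.83-fold (adjusted p = 1.79e-41) although it fell in the average knockout (-1.18, adjusted p = 5.23e-11). DCN (0.62, adjusted p = 6.21e-54) and SPARC (0.40, adjusted p = 5.5e-17), a collagen-binding protein, rose. COL3A1 fell with CoCl2 (-0.75, adjusted p = 2.42e-05), as CCDC80 did.

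Few of PTX3's relatives and partners were expressed. Of 20 listed pentraxins and binding partners, 5 were tested in batch 2, with 2 higher, 1 lower and a median of 0.06. The neuronal pentraxin NPTX1 fell (-1.51, adjusted p = 5e-09) and by similar amounts in each knockout (-1.50, -1.44 and -1.58), with no difference called among them (adjusted p = 0.952). NPTX2 (0.53, adjusted p = 0.03) and the neuronal pentraxin receptor NPTXR (0.25, adjusted p = 0.000894) were higher on average. NPTX2 was higher in knockouts 1 (0.74) and 3 (0.94) and differed by -0.09 in knockout 2 (adjusted p = 0.835), and the 3 differed (adjusted p = 4.59e-05). At 50 µM, 4 were tested, with 3 lower, 0 higher and a median of -0.26: NPTX2 (-1.32, adjusted p = 2.53e-17), NPTXR (-0.18, adjusted p = 0.0032) and the growth factor FGF2, which PTX3 binds (-0.35, adjusted p = 1.96e-07).

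The diacylglycerol kinases and phosphatidate phosphatases, which make and remove the product of DGKK, were called about as often as all genes in the average knockout. Of 15 genes tested, 3 were lower, 0 higher and 12 not called in the average knockout, with a median of -0.12. The phosphatases LPIN1 (-0.17, adjusted p = 7.2e-06) and PLPP3 (-0.75, adjusted p = 0.00372) and the kinase DGKZ (-0.12, adjusted p = 0.0281) were lower on average. PLPP3 and DGKZ were called in knockout 2 alone (-1.09 and -0.19), with no difference called among the knockouts (adjusted p = 0.267 and 0.06). LPIN1 was called in knockouts 2 (-0.29) and 3 (-0.12) and not in knockout 1 (-0.09, adjusted p = 0.0824), and the 3 differed (adjusted p = 2.11e-05). At 50 µM CoCl2, 4 were higher, 4 lower and 7 not called, with a median of -0.04. DGKH (0.38, adjusted p = 1.21e-13) and DGKD (0.19, adjusted p = 1.36e-11) rose and LPIN1 fell (-0.29, adjusted p = 2.67e-27).

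Among 22 tested synaptotagmins and other C2 domain proteins, 4 were higher, 5 lower and 13 not called in the average knockout, with a median of 0.00. SYT7, a high-affinity calcium sensor of exocytosis, was lower (-0.56, adjusted p = 2.11e-13), and SYT11 (0.22, adjusted p = 9.02e-12) and SYT9 (0.33, adjusted p = 0.000881) were higher, SYT9 with no call in knockout 3 (0.07, adjusted p = 0.693). At 50 µM CoCl2, 6 of 21 rose and 8 fell, with a median of -0.18. SYT1, the calcium sensor of fast synaptic release, rose (0.69, adjusted p = 1.55e-75), and SYT7 fell (-0.79, adjusted p = 1.79e-24).

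Of the 26 retinoic acid pathway genes and RAI2 partners, 20 were tested in batch 2, with 1 higher, 5 lower, 14 not called and a median of -0.04. TGM2, a transglutaminase induced by retinoic acid, fell (-1.38, adjusted p = 7.59e-26) with -1.48, -1.37 and -1.28 in knockouts 1, 2 and 3. RAI14 fell on average (-1.45, adjusted p = 1.22e-18), with -1.90 in knockout 1, -2.19 in knockout 3 and -0.27 in knockout 2 (adjusted p = 0.163). ALDH1A3, which makes retinoic acid, was lower on average (-0.49, adjusted p = 4.83e-06). It was called in knockout 2 (-0.96, adjusted p = 1.03e-11) and not in knockouts 1 (-0.24, adjusted p = 0.117) and 3 (-0.28, adjusted p = 0.0615), and the 3 differed (adjusted p = 2.46e-07). At 50 µM CoCl2, 6 of 18 rose and 7 fell, with a median of -0.04: the retinoic acid carrier CRABP2 (-1.34, adjusted p = 7.29e-104) fell and the retinol transporter STRA6 (0.65, adjusted p = 5.7e-66) rose.

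**Figure D5:**
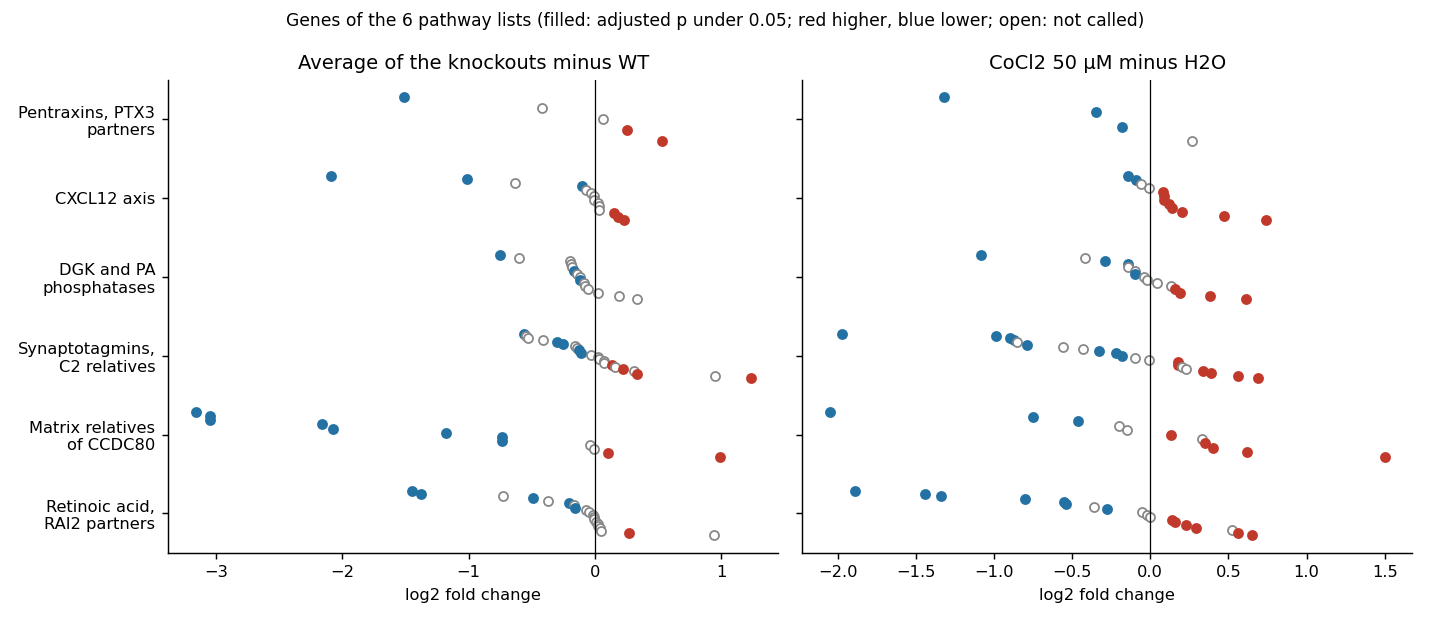
Log2 fold change (horizontal axis) of every tested gene of the 6 pathway lists, the 6 members left out, in the average labelled knockout against WT (left) and at 50 µM CoCl2 against H2O (right). Filled points had an adjusted p under 0.05 (red higher, blue lower) and open points did not, and the matrix relatives of CCDC80 lie mostly below 0 in the knockouts (8 of 12 lower) and on both sides of 0 with CoCl2 (5 higher, 3 lower).

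The genes whose levels ran most like each member were found by Pearson's r over the 14 libraries, on log2(CPM + 1) with each batch's mean removed, among 11795 genes. These r values are a description, since the same group differences that chose the members dominate them. PTX3 ran closest to MEST (r = 0.991), POSTN (r = 0.98), which encodes the matrix protein periostin, and the basement membrane collagen COL4A1 (r = 0.965). Within batch 1, where PTX3 was scarce, the r was -0.419 with MEST, 0.314 with POSTN and 0.521 with COL4A1. CCDC80 ran closest to COL3A1 (r = 0.986), IGFBP7 (r = 0.97) and LOXL2 (r = 0.968), an enzyme that crosslinks collagen. Its r with COL3A1 was 0.775 within batch 1 and 0.994 within batch 2. With IGFBP7 the r of CCDC80 was 0.0625 within batch 1 and 0.996 within batch 2, and with LOXL2 it was 0.783 and 0.976.

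CXCR4 ran closest to DCN (r = 0.978), with 0.961 within batch 1 and 0.983 within batch 2, and then to ATP1B1 (r = 0.969), a sodium pump subunit, and FAM167A (r = 0.961). The closest to RAI2 were RASL11B (r = 0.937), SGSM1 (r = 0.908) and JOSD2 (r = 0.903), and the closest to SYT17 were RFK (r = 0.951), KCNC4 (r = 0.921) and SDC2 (r = 0.915). DGKK, which was higher in the labelled knockouts and lower with CoCl2, ran with the nuclear receptor ESRRG (r = 0.9), FLNC (r = 0.892) and NDRG2 (r = 0.887).

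Markers of other cell types were read beside these results. The 8 endothelial markers summed to 13.8 to 14.3 CPM in WT, 2.26 to 2.7 in knockout 1, 5.26 to 6.33 in knockout 2 and 3.55 to 3.96 in knockout 3, with 5, 0, 2 and 0 of 8 above 1 CPM. PECAM1 had 2.62 and 2.94 CPM in WT and at most 0.217 in any knockout library. Their sum moved with PTX3 and CCDC80 against WT, and their part in those differences was not tested. Single markers did not all follow the sum: mean CPM in knockout 2 was 1.8 for TEK, 0.919 for ERG and 0.307 for VWF against 1.35, 0.841 and 0.251 in WT, and CLDN5 was at 0.473 in knockout 3 against 0.361. In batch 1 the endothelial sum was 1.09 to 2.34 CPM, with PECAM1 at 0 at 10 µM and KDR and TIE1 at 0 at 50 µM.

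The 10 fibroblast and mesenchymal markers summed to 1430 to 1440 CPM in WT and 1200 to 1320 in the labelled knockouts, with 8 of 10 above 1 CPM in every group. VIM made up most of this sum, with a mean of 839 CPM in WT and 798 to 891 in the knockouts. The mean CPM of COL3A1 was 155 in WT and 12.9 to 27.5 in the knockouts, that of COL1A1 was 64.8 and 30 to 46.6, and that of PDGFRB was 42.8 and 13.9 to 30.7, so these markers were lower in the knockouts with PTX3 and CCDC80. Of the others, TWIST1 (60 in WT) and LUM (23.5 in WT) had higher means in knockouts 1 and 3 and lower ones in knockout 2, and COL1A2 was at 0 in both WT libraries. THY1 (237 in WT), SNAI2 (10.2 in WT) and the scarce PRRX1 (0.126 in WT) had lower means in knockouts 1 and 3 and higher ones in knockout 2. The part of these markers in the results was not tested. In batch 1 the same sum was 1510 to 1530 in H2O and 1880 to 1890 at 50 µM, where VIM alone went from a mean of 1140 to 1520 CPM. PDGFRB (39.3 to 14.9), TWIST1 (93.6 to 69.4), LUM (18.9 to 13.7), COL3A1 (3.28 to 1.95) and COL1A1 (6.33 to 5.52) had lower mean CPM at 50 µM, as CCDC80 did. The COL1A1 difference was not called (log2 -0.20, adjusted p = 0.0936). THY1 (219 to 251) and SNAI2 (3.63 to 5.57) had higher means at 50 µM, like VIM, and PRRX1 (0.0128 to 0.014) and COL1A2 (0 to 0.014) were barely detected. The 8 immune markers, read beside CXCR4, summed to 5.75 to 5.95 CPM in H2O and 19.3 to 19.7 at 50 µM. CD68, a lysosomal protein, made up most of that sum (18.7 to 19 CPM at 50 µM). MS4A1 was at 0 in all 14 libraries, and PTPRC, the defining leukocyte marker, was at 0 in both H2O libraries and at most 0.0706 CPM in any library. The 6 epithelial markers summed to 2.28 to 3.91 CPM in all libraries.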

How the data were processed

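RNA was measured in 14 libraries of SK-N-BE2 cells, in 7 groups of 2 and 2 labelled batches. The deposited values are raw counts per gene name, which the authors made with featureCounts. Per the file headers, its annotation was the protein-coding part of GENCODE 33 (GRCh38), summed over exons. The headers name version 1.5.3 for batch 1 and 2.0.5 for batch 2 and no strand option, so the genes of overlapping strands were not separated. Of batch 2 counts from 1 to 10, 77.3% to 80.5% were even against 39% to 42.3% for batch 1, so most stood for reads rather than fragments, and batches were fitted separately. Per the submitters' processing notes, Trimmomatic 0.36, STAR 2.6.1d and Subread 1.5.3 were used.

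The quasi-likelihood test of edgeR 4.0.16 was run on the counts in R 4.3.3, using TMM scaling, the filterByExpr filter by group, a dispersion floor just above 1e-04 and a robust glmQLFit with legacy = FALSE. Each group had 1 coefficient. The batch 1 fit covered 13636 genes and the batch 2 fit 14061, and Benjamini-Hochberg adjustment ran over these. The floor applied to batch 1, where the estimate was 7.66e-05. SE was taken as the size of the log2 change over the root of its F statistic. The fit was also run on simulated counts with a constant dispersion and changes made only in well-counted genes. That run does not cover scarce genes or counts of both reads of a fragment. DESeq2 1.42.0, DESeq2's size factors, no gene filter, all 14 libraries in 1 fit, no floor, a replicate block, counts of batch 2 divided by 2, 1 coefficient for all knockouts and leaving out each library were the alternatives. Replicate pairs differed by more than counting noise (chi-square per gene at least 1.23).

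The members and the gene lists were chosen with earlier results of these data known. The genes named beside the members were TET2, overlapping and nearest genes, the 3 genes of each list with the smallest adjusted p at 50 µM CoCl2 and in the average knockout where called, and the 3 genes most like each member. The markers named singly (of the endothelial, mesenchymal and immune lists) were chosen after their values were seen. Promoter sequences of 5 of the 6 members were matched by symbol in RefSeq's GRCh38.p14 table. Results for some genes that this rule names are not reported here.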

Additional observations from a re-analysis of the deposited data

Results flagged for a closer look

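CCDC80, SYT17 and CXCR4 differed between the labelled knockouts by edgeR's F-test over the 3, with the highest and lowest knockouts 0.72, 1.17 and 0.21 apart on the log2 scale (adjusted p = 6.21e-05, 3.01e-05 and 0.018). The CXCR4 call was lost without the first library of knockout 2 (adjusted p = 0.0983), the first of knockout 3 (0.129) or the second of knockout 3 (0.0967).

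CXCR4 and RAI2 differed between the CoCl2 doses, with 50 µM above 10 µM by 0.52 (adjusted p = 3.37e-14) and 0.66 (adjusted p = 0.0394) on the log2 scale in edgeR's quasi-likelihood test. The RAI2 call was lost with DESeq2 (adjusted p = 0.257), with no gene filter (0.07), in the fit of all 14 libraries (0.207), without the second 10 µM library (0.42) and without the first 50 µM library (0.25).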

How the results depend on the processing

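Of the recomputed counts of called genes, 141 stayed within 1.5 times the reported count and 16 did not. At 10 µM CoCl2 the 3098 calls became 1121 with DESeq2 and 796 in the fit of all 14 libraries. That fit gave 4674 calls between the doses (7198 reported) and 2027 between knockouts 3 and 1 (1167 reported). With 1 coefficient for all 6 knockout libraries the average had 256 calls in place of 2656. Leaving out 1 library, where the lone library of a group is assumed to vary like the others, gave 1860 to 3291 calls at 10 µM, 1375 to 2586 for knockout 1, 2406 to 3766 for knockout 2, 1568 to 2615 for knockout 3, 1587 to 2703 for the average and 564 to 1184 between knockouts 3 and 1.

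Member differences that changed sign were all uncalled. Over all fits without 1 library, SYT17 at 10 µM ranged from -0.11 to 0.49 and CXCR4 at 10 µM from -0.04 to 0.08, with 0.00 without the first 10 µM library. SYT17 between the doses ranged from -0.03 to 0.67. Between knockouts 2 and 1, DGKK ranged from -0.24 to 0.04 and RAI2 from -0.33 to 0.03, and RAI2 between knockouts 3 and 2 from -0.57 to 0.07. The cause was not tested. CXCR4 between knockouts 3 and 1 was called in the fit of all 14 libraries (adjusted p = 0.0383). SYT17 in knockout 3 against WT ranged from 0.17 to 0.59 without single libraries. At 50 µM the calls of CCDC80, DGKK, CXCR4 and RAI2 held without any single library (largest adjusted p = 8.52e-06, 0.0249, 9.41e-11 and 0.0402).

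Same-numbered libraries did not deviate together (r = -0.0457 to 0.0229), so the numbers were not taken to pair samples. The replicate block changed no call of the 6 genes, and gave 8303 calls at 50 µM CoCl2 and 2458 for the average knockout. DGKK, SYT17, RAI2 and, in batch 1, PTX3 are limited by low counts.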
